A study of Mus musculus with 2 samples.

Results

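The genes described here are 10 organizers of synaptic contact: the neurexins *Nrxn2* and *Nrxn3*, the neuroligins *Nlgn1*, *Nlgn2* and *Nlgn3*, the leucine-rich repeat transmembrane genes *Lrrtm1*, *Lrrtm2*, *Lrrtm3* and *Lrrtm4*, and the cerebellin *Cbln2*. They were taken by symbol from the 32285 genes of the count tables, and all 10 had counts. The data are 2 single-cell RNA sequencing libraries of cerebral cortex from mouse embryos at embryonic day (E) 16.5, both WT controls of a line labelled EomesDot, an *Eomes-Cre* line. There was no mutant or treated group, and the labels state neither whether the WT embryos carried the Cre allele nor whether a library held cells of 1 embryo or of several. The study asked which ligand-receptor pairs could link *Sst*-expressing cortical interneurons (cINs) to radial glial cells (RGCs) and intermediate progenitor cells (IPCs). What can be compared is 1 class of cells with another inside these libraries. The p-values rest on the spread between these 2 libraries, estimated with information shared over genes and over the classes of a fit. A small p-value therefore need not mean that the 2 libraries agreed closely for that gene.

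Neurexins are transmembrane proteins best known from the presynaptic side, where their outer domains bind partners across the synaptic cleft. Neuroligins and LRRTM proteins are their postsynaptic partners, NLGN2 being found mainly at inhibitory synapses, and secreted cerebellins bridge neurexins to glutamate delta receptors. In the embryonic cortex, contacts of this kind are still being built: excitatory neurons arise from RGCs through IPCs and migrate radially, while GABAergic neurons arrive from the ganglionic eminences below (MGE, CGE and LGE for the medial, caudal and lateral ones).

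Promoter sequences are shown for *Nrxn3*, *Nlgn1*, *Lrrtm3* and *Lrrtm4*, the members on which most of the differences below turn, as 300-base windows from 250 bases before to 50 bases after a transcription start. RefSeq (GRCm38.p6) had 10 such windows for 6 of the 10 members. Capitals mark each match to CANNTG, the E-box letters read by basic helix-loop-helix factors such as the proneural proteins, which are the same on both strands. For *Nrxn3*, which has 3 windows, the one with most matches is shown, and for *Nlgn1* and *Lrrtm4* the start that lies farthest upstream.
*Nrxn3*, chr12:89812233-89812532, plus strand: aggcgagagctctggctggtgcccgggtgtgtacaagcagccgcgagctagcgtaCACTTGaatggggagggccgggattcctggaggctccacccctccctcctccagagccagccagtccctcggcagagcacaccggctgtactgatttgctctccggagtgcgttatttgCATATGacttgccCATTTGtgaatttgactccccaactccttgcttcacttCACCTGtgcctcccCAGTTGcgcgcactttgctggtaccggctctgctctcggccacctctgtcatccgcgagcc
*Nlgn1*, chr3:26331860-26332159, minus strand: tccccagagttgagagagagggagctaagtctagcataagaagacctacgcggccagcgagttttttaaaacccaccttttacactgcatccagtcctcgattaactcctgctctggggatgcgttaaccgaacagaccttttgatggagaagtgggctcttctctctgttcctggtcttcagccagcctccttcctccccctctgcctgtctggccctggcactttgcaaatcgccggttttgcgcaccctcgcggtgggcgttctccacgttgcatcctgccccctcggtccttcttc
*Lrrtm3*, chr10:64090206-64090505, minus strand: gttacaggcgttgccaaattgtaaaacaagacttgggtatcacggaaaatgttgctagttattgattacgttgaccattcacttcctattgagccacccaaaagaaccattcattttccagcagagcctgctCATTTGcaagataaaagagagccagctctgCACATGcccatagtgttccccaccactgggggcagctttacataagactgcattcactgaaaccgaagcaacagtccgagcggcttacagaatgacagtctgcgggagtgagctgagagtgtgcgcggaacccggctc
*Lrrtm4*, chr6:80018627-80018926, plus strand: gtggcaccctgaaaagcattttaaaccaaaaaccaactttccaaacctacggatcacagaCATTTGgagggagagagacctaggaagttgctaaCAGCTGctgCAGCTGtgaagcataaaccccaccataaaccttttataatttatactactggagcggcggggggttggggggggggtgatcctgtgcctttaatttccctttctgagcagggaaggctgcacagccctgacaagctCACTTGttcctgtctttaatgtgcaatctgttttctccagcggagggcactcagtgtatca

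The *Nrxn3* window held 5 such matches, the *Lrrtm4* window 4, the *Lrrtm3* window 2 and the *Nlgn1* window 0. The other *Nrxn3* windows held 0 and 1 match, and the other *Lrrtm4* window 2. At least 1 match occurred in 72.3% of the 32851 promoter windows of the same length. The homeodomain letters TAATTA, found in 5.29% of all windows, were in none of the 10 windows of the members.

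Replicate 1 held 9049 barcodes with 46398156 unique molecular identifiers (UMIs, 1 per captured RNA molecule) and replicate 2 held 13556 barcodes with 64324236 UMIs. Cells with 1500 to 60000 UMIs and under 10% mitochondrial UMIs were kept, which left 5966 and 10247 cells with medians of 5706 and 4938 UMIs, and 40 barcode sequences occurred in both libraries. *Neurod6*, a gene of cortical excitatory neurons, had a UMI in 53.4% and 55.0% of the kept cells, and the spinal and hindbrain genes *Hoxa5* and *Hoxc6* in 0%. Marker genes, none of them a member, placed 3681 and 6046 cells in 17 classes, named "X-like" below. Median depth differed between classes, from 2635 to 12313.5 UMIs in replicate 1. A level is given in CPM, the UMIs of a gene per 1000000 UMIs of a class in a library. In sums of this kind fewer expressing cells and less RNA per cell cannot be told apart, and 3′ UMI counts show neither α and β forms nor splice variants. A member's levels are therefore compared between classes only, not with those of another member.

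**Figure D1:**
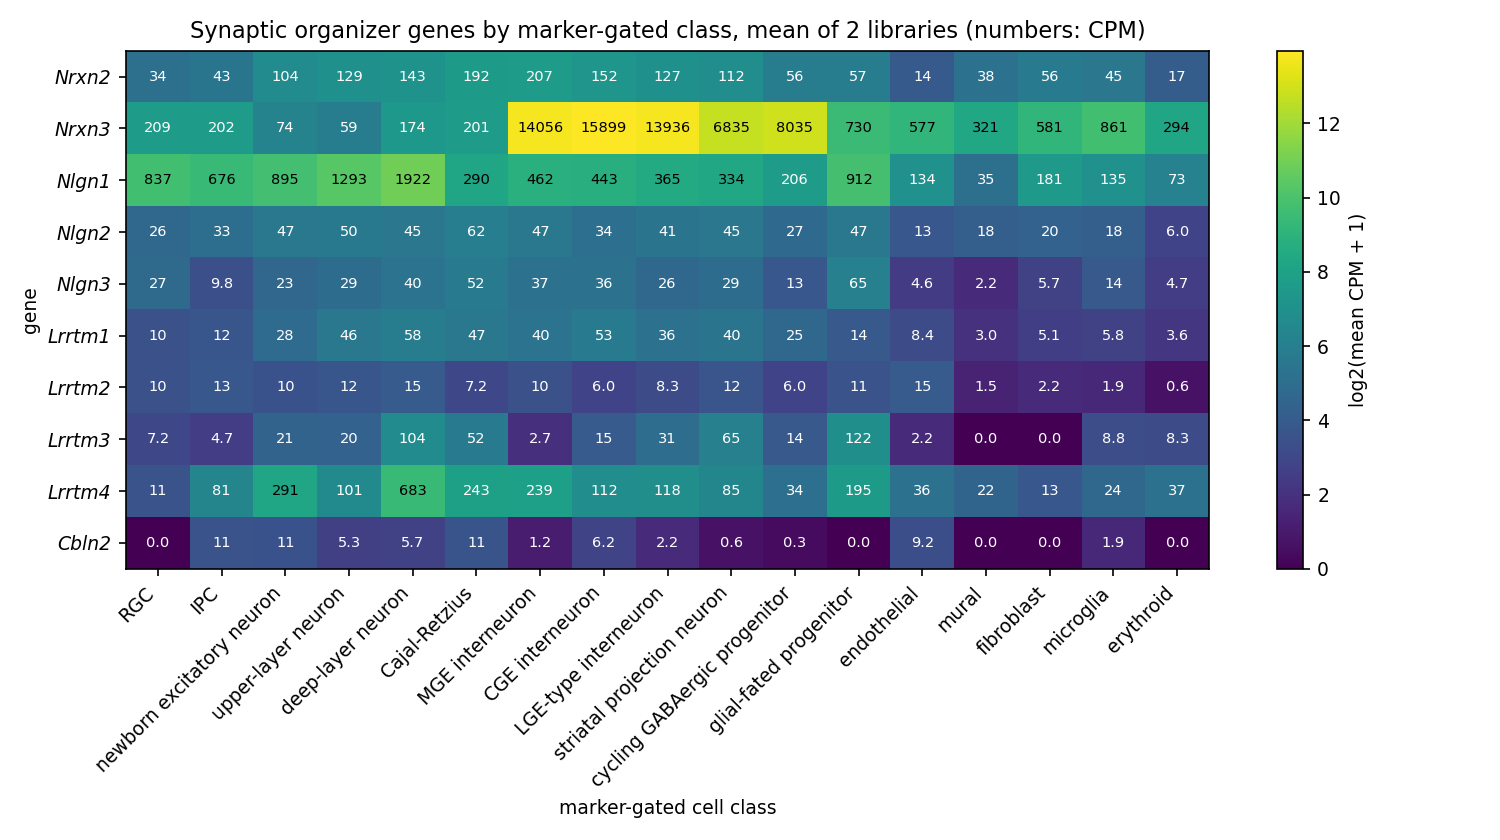
Mean level of each member (rows) in each marker-gated class (columns) over the 2 libraries. Numbers are CPM and colour is log2(mean CPM + 1). *Nrxn3* stands at 6835 to 15899 CPM in the GABAergic classes, while *Nlgn1* and *Lrrtm4* are highest in deep-layer neuron-like cells.

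*Nrxn3* marked the GABAergic cells. CGE interneuron-like cells held 16027 and 15770 CPM in replicates 1 and 2, MGE interneuron-like cells 14184 and 13928 CPM, and LGE-type interneuron-like cells 15794 and 12078 CPM. The CGE and MGE values did not overlap, while those of the LGE type spanned the MGE values. Cycling GABAergic progenitor-like cells held 8035 ± 869 CPM (SD, n = 2) and striatal projection neuron-like cells 6835 ± 645 CPM. Below these 5 classes the level dropped to 861 CPM or less. Within the pallial lineage it was 209 ± 46.7 CPM in RGC-like, 202 ± 10.0 CPM in IPC-like, 73.6 ± 9.77 CPM in newborn excitatory neuron-like, 59.5 ± 16.9 CPM in upper-layer and 174 ± 40.8 CPM in deep-layer neuron-like cells. The upper-layer class had the lowest mean of all 17, but its values overlapped those of the newborn class. Mural-like values, at 321 ± 416 CPM, spanned them.

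In the non-neural classes single cells held a large part of the *Nrxn3* UMIs. In microglia-like cells 1 cell gave 131 of 151 UMIs (86.8%) in replicate 1 and 104 of 428 (24.3%) in replicate 2. In fibroblast-like cells 1 cell gave 52.9% and 30%, and in erythroid-like cells 45.7% and 16.3%. In endothelial-like cells the cell with most UMIs gave 31.1% and 35.0% of the class total in replicates 1 and 2. The summed level of the 8 GABAergic marker genes was 303 and 212 CPM in microglia-like, 63.9 and 150 CPM in fibroblast-like and 70.7 and 112 CPM in endothelial-like cells, against 24.9 and 25.8 CPM in upper-layer neuron-like and 2886 and 2473 CPM in MGE interneuron-like cells. Its part in these *Nrxn3* levels was not tested. The gates of the pallial classes admitted at most 1 GABAergic marker gene per cell, whereas the non-neural gates set no such limit.

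**Figure D2:**
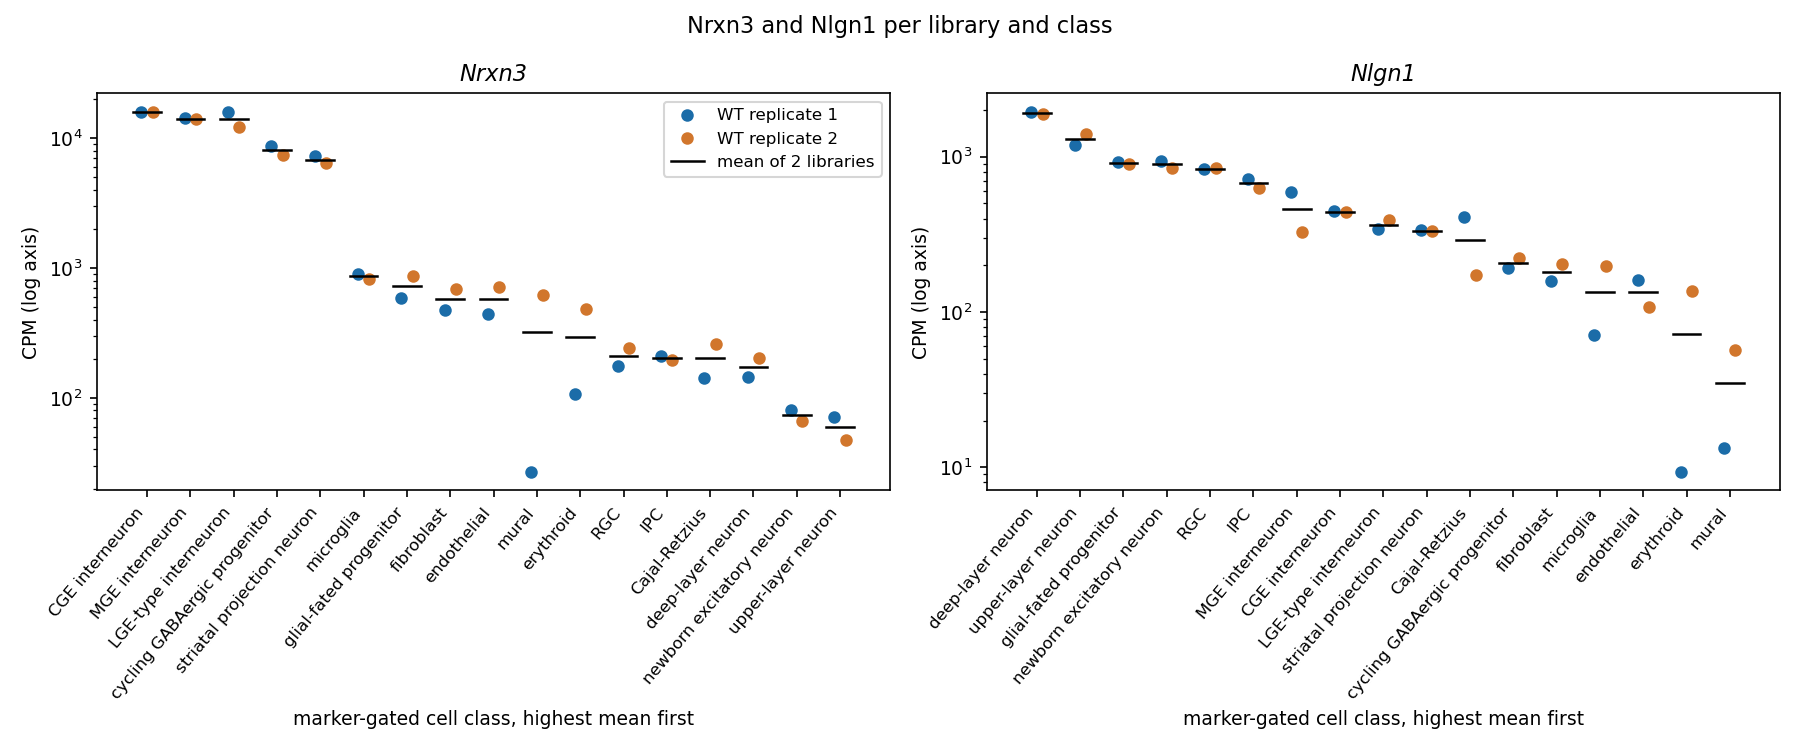
*Nrxn3* (left) and *Nlgn1* (right) in CPM on a log axis, with 1 point per library and a line at the mean of the 2 libraries, classes ordered by mean. The 5 GABAergic classes stand at 6379 to 16027 CPM for *Nrxn3*, and *Nlgn1* runs from 1922.5 CPM in deep-layer neuron-like to 35.0 CPM in mural-like cells.

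*Nrxn2* was spread over the postmitotic neurons of both lineages. It was highest in MGE interneuron-like cells, at 200 and 215 CPM, followed by Cajal-Retzius-like cells at 232 and 153 CPM, whose values spanned the former. Deep-layer and upper-layer neuron-like cells held 143 ± 0.815 and 129 ± 11.8 CPM. The progenitor classes were lower, with 34.1 ± 7.94 CPM in RGC-like, 42.7 ± 2.15 CPM in IPC-like, 56.2 ± 6.46 CPM in cycling GABAergic progenitor-like and 57.4 ± 14.1 CPM in glial-fated progenitor-like cells.

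*Nlgn1* was present at its higher levels throughout the pallial lineage, progenitors included, and in glial-fated progenitor-like cells, which followed the deep-layer and upper-layer classes at 929 and 895 CPM. RGC-like cells held 830 and 844 CPM, IPC-like cells 720 and 632 CPM, newborn excitatory neuron-like cells 940 and 849 CPM, upper-layer neuron-like cells 1195 and 1392 CPM and deep-layer neuron-like cells 1954 and 1891 CPM. The deep-layer values stood above those of all other classes in both libraries. GABAergic neurons held less, from 334 ± 3.30 CPM in striatal projection neuron-like to 462 ± 191 CPM in MGE interneuron-like cells. The MGE values of 597 and 327 CPM differed between the libraries by more than those of the CGE class, at 447 and 439 CPM. In replicate 1, MGE interneuron-like cells under 5% mitochondrial UMIs held 877 CPM of *Nlgn1* and the others 349 CPM, against 323 and 334 CPM in replicate 2. Upper-layer neuron-like cells under 5% held 942 and 1231 CPM and the others 1490 and 1603 CPM. In cells under 5% alone, the MGE class had less *Nlgn1* than the upper-layer class, at a log2 difference of -0.93 ± 0.31 (adjusted p = 0.0323, edgeR), where all cells gave -1.55 ± 0.21. This difference came mostly from replicate 2, at 323 against 1231 CPM, the values in replicate 1 being 877 against 942 CPM.

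The other neuroligins differed less between neuron classes. *Nlgn2*, the neuroligin of inhibitory synapses, lay between 33.6 and 61.7 CPM in the 8 postmitotic neuron classes, and of the 16 pairs of neighbours in the order of all classes 12 overlapped. RGC-like cells had 17.5 and 33.9 CPM. *Nlgn3* was highest in glial-fated progenitor-like cells (the *Olig1* or *Olig2* gate), at 80.8 and 50.2 CPM, from 18 UMIs in each library. It reached 39.6 ± 4.34 CPM in deep-layer neuron-like cells and only 9.80 ± 0.286 CPM in IPC-like cells, below the RGC-like and newborn classes on either side.

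*Lrrtm4*, an organizer of excitatory synapses, was the only member called in all 9 comparisons made below, 7 times higher and 2 times lower. It stood at 696 and 670 CPM in deep-layer neuron-like cells, at 285 and 296 CPM in newborn excitatory neuron-like cells and at 112 and 90.6 CPM in upper-layer neuron-like cells. RGC-like cells had 10.4 and 11.7 CPM, the lowest mean of all classes. *Lrrtm4* differed with the mitochondrial share, in opposite directions between classes. Upper-layer neuron-like cells under 5% held 159 and 110 CPM and the others 57.5 and 65.5 CPM, and newborn ones 328 and 301 CPM against 140 and 270 CPM. MGE interneuron-like cells under 5% held less, 195 and 190 CPM against 286 and 329 CPM. Deep-layer ones held 591 CPM against 770 CPM in replicate 1 and 675 CPM against 663 CPM in replicate 2. Of the newborn cells 79 of 333 and 80 of 421 were at or over 5%, of the upper-layer cells 647 of 1153 and 1188 of 2179. In cells under 5% alone, *Lrrtm4* was still called lower in upper-layer than in newborn (-1.23 ± 0.21) and higher in deep-layer than in upper-layer neuron-like cells (2.22 ± 0.21). Cajal-Retzius-like cells held 243 ± 8.49 CPM and MGE interneuron-like cells 239 ± 6.77 CPM.

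*Lrrtm3* divided the GABAergic classes. Striatal projection neuron-like cells held 75.0 and 55.8 CPM (119 and 117 UMIs) and MGE interneuron-like cells 4.20 and 1.15 CPM (6 and 2 UMIs). Deep-layer neuron-like cells held 107 and 102 CPM, upper-layer ones 17.1 and 22.4 CPM. Glial-fated progenitor-like cells had the highest mean, 122 ± 30.6 CPM, which overlapped that of the deep-layer class and came from 10 of 28 and 15 of 47 cells. In this class 1 cell gave 34.4% and 22.2% of the *Lrrtm3* UMIs. Of its cells, 0 of 28 and 17 of 47 were among the doublets removed in an alternative.

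*Lrrtm3* lies on the minus strand of chromosome 10 (63928497 to 64090255, GRCm38.p6), inside *Ctnna3* (63430098 to 65003667), which is read from the plus strand and encodes a catenin of cell-cell junctions. The strand setting of the counting is not given in the sources used here. Whether reads of either gene were counted for the other was not tested. *Ctnna3* followed a like order, with 216 ± 62.45 CPM in deep-layer, 107 ± 13.6 CPM in glial-fated progenitor-like, 99.9 ± 19.1 CPM in striatal projection neuron-like and 5.64 ± 3.90 CPM in MGE interneuron-like cells. *Lrrtm1* (chromosome 6, 77229210 to 77259915, plus strand) lies inside *Ctnna2* (76881637 to 77979815, minus strand), which held 2204 ± 142 CPM in deep-layer and 2434 ± 172 CPM in upper-layer neuron-like cells. *Lrrtm2* likewise lies inside *Ctnna1*.

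**Figure D3:**
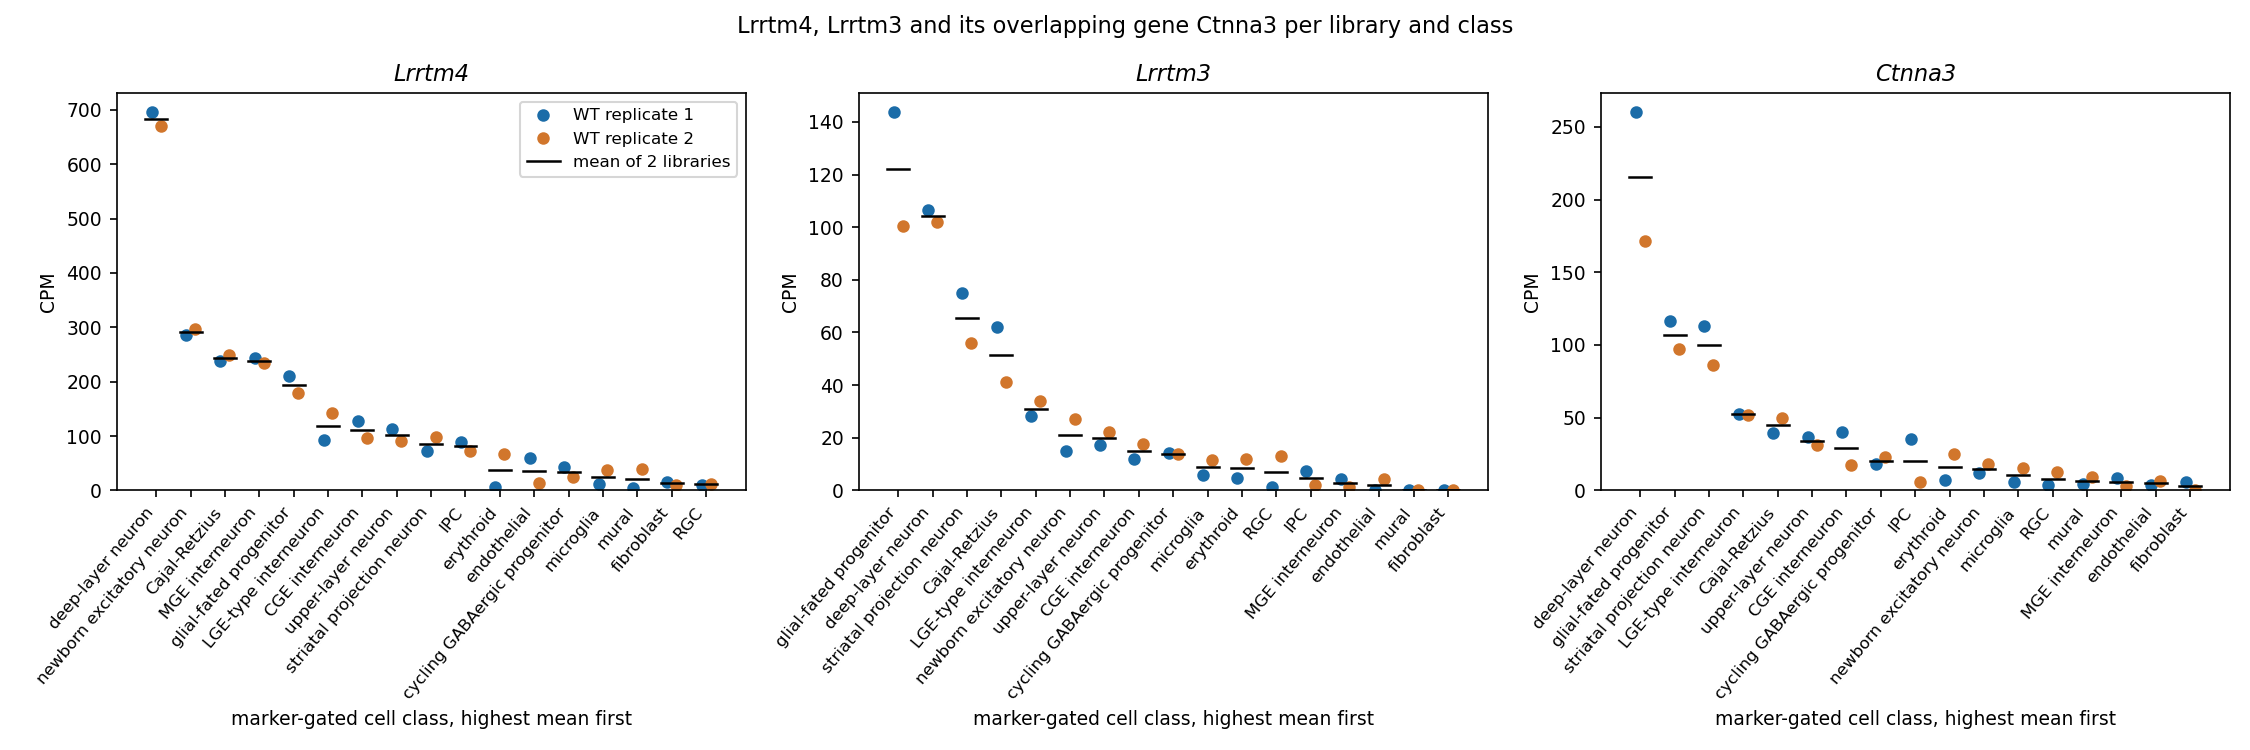
*Lrrtm4*, *Lrrtm3* and *Ctnna3*, the gene that holds *Lrrtm3*, in CPM per class, with 1 point per library and a line at the mean of the 2 libraries. Deep-layer neuron-like cells stand highest for *Lrrtm4* and *Ctnna3*, and MGE interneuron-like cells are near 0 for *Lrrtm3* and *Ctnna3* but hold 239 CPM of *Lrrtm4*.

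*Lrrtm1* and *Lrrtm2* were low. *Lrrtm1* had its highest mean in deep-layer neuron-like cells, 57.9 ± 3.66 CPM, which CGE interneuron-like cells overlapped at 53.2 ± 10.2 CPM. It lay at 10.1 ± 2.33 CPM in RGC-like cells. *Lrrtm1* moved with the mitochondrial share: deep-layer cells under 5% held 26.1 and 42.5 CPM, the others 84.9 and 72.7 CPM. Under 5% the CGE class had the highest mean, 39.1 CPM against 34.3 CPM in the deep-layer class. The part of this in the *Lrrtm1* results was not tested beyond the alternative named below. *Lrrtm2* reached 10 CPM in 9 of the 17 classes and 15.05 ± 0.941 CPM at most, in endothelial-like cells, level with 15.04 ± 1.45 CPM in deep-layer neuron-like cells. *Cbln2* rested on 212 and 286 UMIs in all kept cells. Its highest mean, in Cajal-Retzius-like cells, came from 4 and 0 UMIs. IPC-like cells held 24 and 22 of these UMIs (12.8 and 8.80 CPM) and newborn excitatory neuron-like cells 40 and 22 (13.6 and 7.42 CPM). Endothelial-like cells, at 9.21 ± 3.64 CPM, overlapped both and had the highest mean with stricter gates, 12.9 CPM. Both libraries were at 0 UMIs in RGC-like cells, which allows up to 1.94 and 1.95 CPM.

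To compare shares of cells, each cell was thinned to 1500 UMIs, and the highest share among erythroid-like, microglia-like and endothelial-like cells was taken as background. For *Nrxn3* it was set by endothelial-like cells, of which 13 of 50 and 27 of 112 were among the doublets removed in an alternative, and in which 1 cell held 70 of 225 and 225 of 643 UMIs. *Nrxn3* had a UMI in 99.4% and 99.5% of MGE interneuron-like cells, and in 18.3% and 20.4% of RGC-like cells against a background of 22.0% and 16.1%. Its share was thus above background in both libraries in only 6 of the 12 neural classes, the 5 GABAergic ones and the glial-fated one at 50% and 51.1%. With doublets removed, the endothelial-like shares were 10.8% and 10.6% and the RGC-like shares 18.0% and 20.6%, while microglia-like cells had 21.7% (5 of 23 cells) and 10.9%. The count then was 6 of 11 neural classes, Cajal-Retzius-like cells having fewer than 20 cells left in replicate 1. RGC-like cells thus lay above endothelial-like cells in both libraries once doublets were removed, and above microglia-like cells in replicate 2 alone. Without thinning, the RGC-like shares were 43.3% and 40.7% against 26.0% and 24.1%. *Nlgn1* was above its background of 12% and 11.25% in all 12 neural classes, with 62.2% and 56.2% of RGC-like, 49.5% and 46.2% of IPC-like and 34.2% and 27.6% of MGE interneuron-like cells. Fibroblast-like cells, which were not part of the background, had a *Nlgn1* UMI in 16.7% of cells in both libraries, above cycling GABAergic progenitor-like cells at 14.9% in replicate 1. For *Nrxn2*, mural-like cells at 7.14% and 9.62%, likewise not part of the background, stood above IPC-like cells at 5.61% and 6.61%, and fibroblast-like cells had 4.17% and 11.1%. *Nrxn2* and *Nlgn2* passed in 11 of the 12 classes, *Nlgn3* and *Lrrtm3* in 7, *Lrrtm4* in 6, *Lrrtm1* and *Cbln2* in 5 and *Lrrtm2* in 1. With doublets removed, *Lrrtm1* passed in 10, *Nlgn2* in 7 and *Cbln2* in 3 of 11 classes. *Lrrtm4* had a UMI in 45.3% and 41.7% of deep-layer and in 9.45% and 9.41% of upper-layer neuron-like cells, against a background of 10% and 6.25%. The upper-layer share thus lay under the background in replicate 1, as did that of IPC-like cells, at 9.81% and 4.80%, in both libraries. With doublets removed the *Lrrtm4* background was 5.41% and 7.27%, and *Lrrtm4* passed in 8 of 11 classes.

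**Figure D4:**
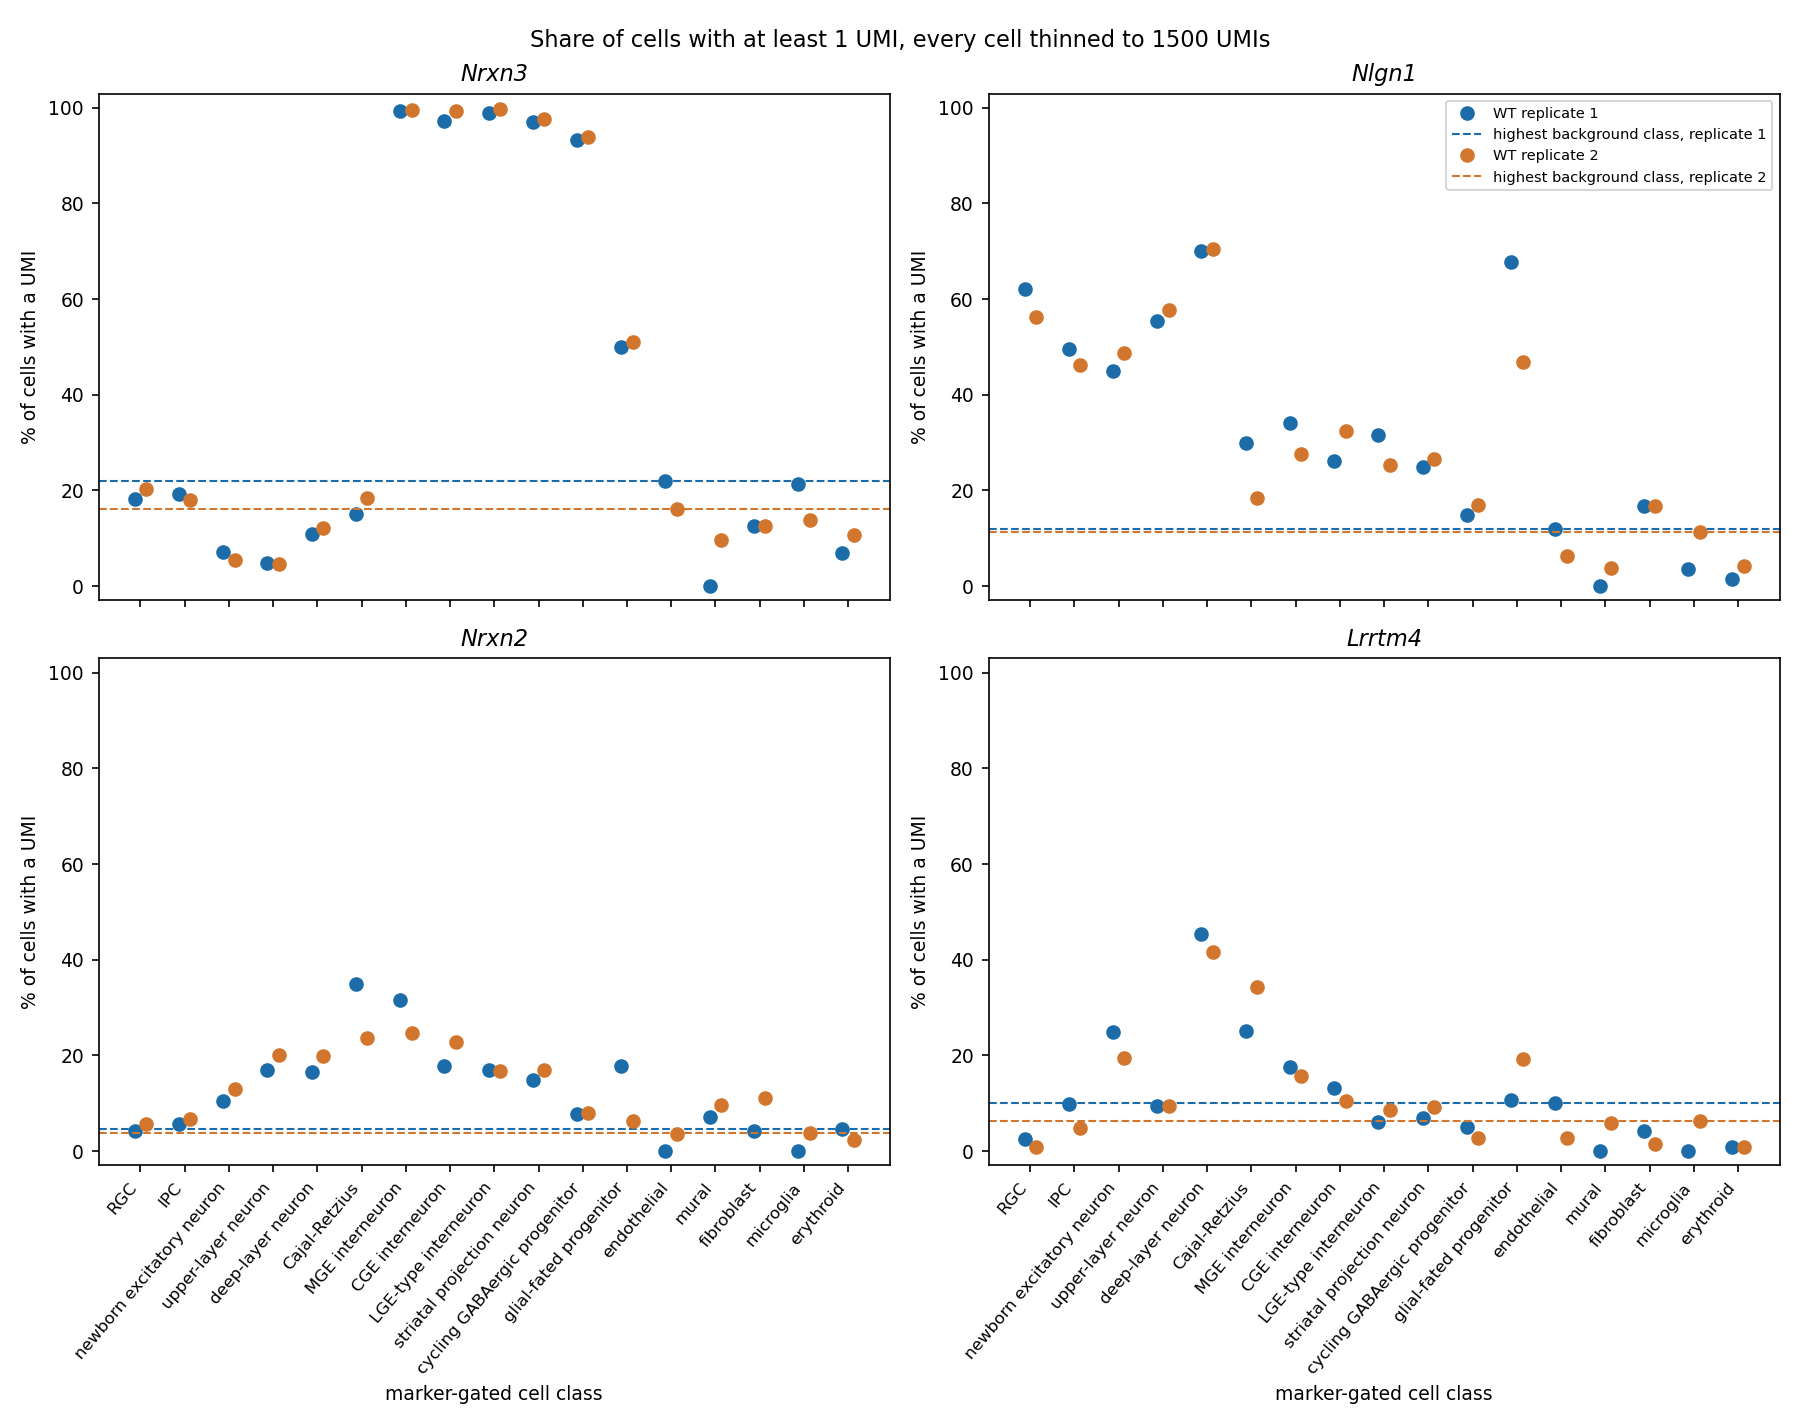
Share of cells with at least 1 UMI of *Nrxn3*, *Nlgn1*, *Nrxn2* and *Lrrtm4* per class after thinning every cell to 1500 UMIs, with 1 point per library and dashed lines at the highest background class of each library. *Nrxn3* is above both lines in 6 of 12 neural classes and *Nlgn1* in all 12.

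Between RGC-like and IPC-like cells *Lrrtm4* and *Cbln2* were higher in IPC-like cells and *Nlgn3* was lower. These 3 of the 10 were called (edgeR's quasi-likelihood test on sums per library and class, Benjamini-Hochberg adjusted p under 0.05), a share near the 32.4% of all 15083 genes tested. *Lrrtm4* rose from 10.4 and 11.7 to 89.6 and 73.2 CPM, a log2 fold change of 2.91 ± 0.37 (SE, adjusted p = 2.6e-08). *Nlgn3* fell from 21.4 and 33.2 to 9.60 and 10.0 CPM (log2 -1.42 ± 0.27, adjusted p = 3.83e-05). *Cbln2*, at 0 UMIs in RGC-like cells, was at least 4.50-fold higher in IPC-like cells (adjusted p = 6.98e-05). *Nrxn3* and *Nlgn1* had log2 differences of 0.02 ± 0.39 and -0.26 ± 0.21 and were not called. After removal of doublets 5 members were called, *Nlgn1* (-0.45) and *Lrrtm3* (-2.30) being added. The 32.4% belongs to the fit with doublets kept and cannot be set beside that count. *Nlgn1* was also called with only these 2 classes in the fit (-0.25). With all cells *Lrrtm3* went opposite ways in the libraries, 2.53 within replicate 1 and -2.70 within replicate 2, from 14 and 5 UMIs in IPC-like and 2 and 20 in RGC-like cells.

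The next step, from IPC to newborn excitatory neuron, was the broadest, with 7 of 10 members called against 22.6% of all genes. *Lrrtm3* rose by log2 2.31 ± 0.44, *Lrrtm4* by 1.89 ± 0.20, *Nrxn2* by 1.34 ± 0.18, *Nlgn3* by 1.27 ± 0.25, *Lrrtm1* by 1.18 ± 0.26 and *Nlgn2* by 0.57 ± 0.19 (adjusted p from 6.86e-10 to 0.0227, edgeR). The *Nlgn2* call was lost with cells under 5% mitochondrial UMIs, where the difference was 0.46. *Nrxn3* went the other way and fell from 209 and 195 to 80.6 and 66.7 CPM (log2 -1.40 ± 0.40, adjusted p = 0.00789). DESeq2 did not make this call, at -1.38. The thinned shares of cells behind it were 19.2% and 18.0% in IPC-like and 7.21% and 5.46% in newborn cells. The background was 22.0% and 16.1%, so neither class was above it in both libraries. The *Lrrtm3* difference was 1.003 within replicate 1 and 3.77 within replicate 2, from 14 and 5 UMIs in IPC-like cells. *Nlgn1* had a difference of 0.45 ± 0.20 (adjusted p = 0.111) and was called under 4 of the alternatives, at 0.46 to 0.52. *Cbln2* had a difference of 0.01 ± 0.44.

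Between newborn and upper-layer neuron-like cells 2 of 10 members were called, against 8.76% of all genes. *Lrrtm4* fell by 1.54 ± 0.17 on the log2 scale (adjusted p = 7.5e-09), from 285 and 296 to 112 and 90.6 CPM. *Lrrtm1* rose from 24.1 and 32.02 to 42.0 and 50.4 CPM (log2 0.72 ± 0.17, adjusted p = 0.00275). This call was lost with DESeq2, at 0.74, and with cells under 5% mitochondrial UMIs, at 0.49. With only these 2 classes in the fit 6 members were called, but the 8.76% belongs to the fit of all classes and cannot be set beside that count. *Nlgn1* at 0.52 ± 0.20 (adjusted p = 0.0978) was called under 5 of the alternatives, at 0.51 to 0.69.

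Deep-layer neuron-like cells, the earlier-born excitatory neurons, differed from upper-layer ones in 3 of 10 members, all higher, against 15.1% of all genes called. The rise was log2 2.70 ± 0.17 for *Lrrtm4* (adjusted p = 2.26e-16) and 2.32 ± 0.18 for *Lrrtm3* (adjusted p = 1.92e-13), whose overlapping gene *Ctnna3* rose by 2.58 ± 0.19. *Nrxn3* rose from 71.4 and 47.5 to 145 and 203 CPM (1.47 ± 0.38, adjusted p = 0.00473). This difference was 1.02 within replicate 1 and 2.10 within replicate 2, and DESeq2 did not call it, at 1.52. The thinned shares of cells behind it, 10.8% and 12.1% of deep-layer cells, were under the background shares. *Nlgn1* at 0.51 ± 0.19 had an adjusted p of 0.0688, and was called under 6 of the alternatives, at 0.46 to 0.61.

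**Figure D5:**
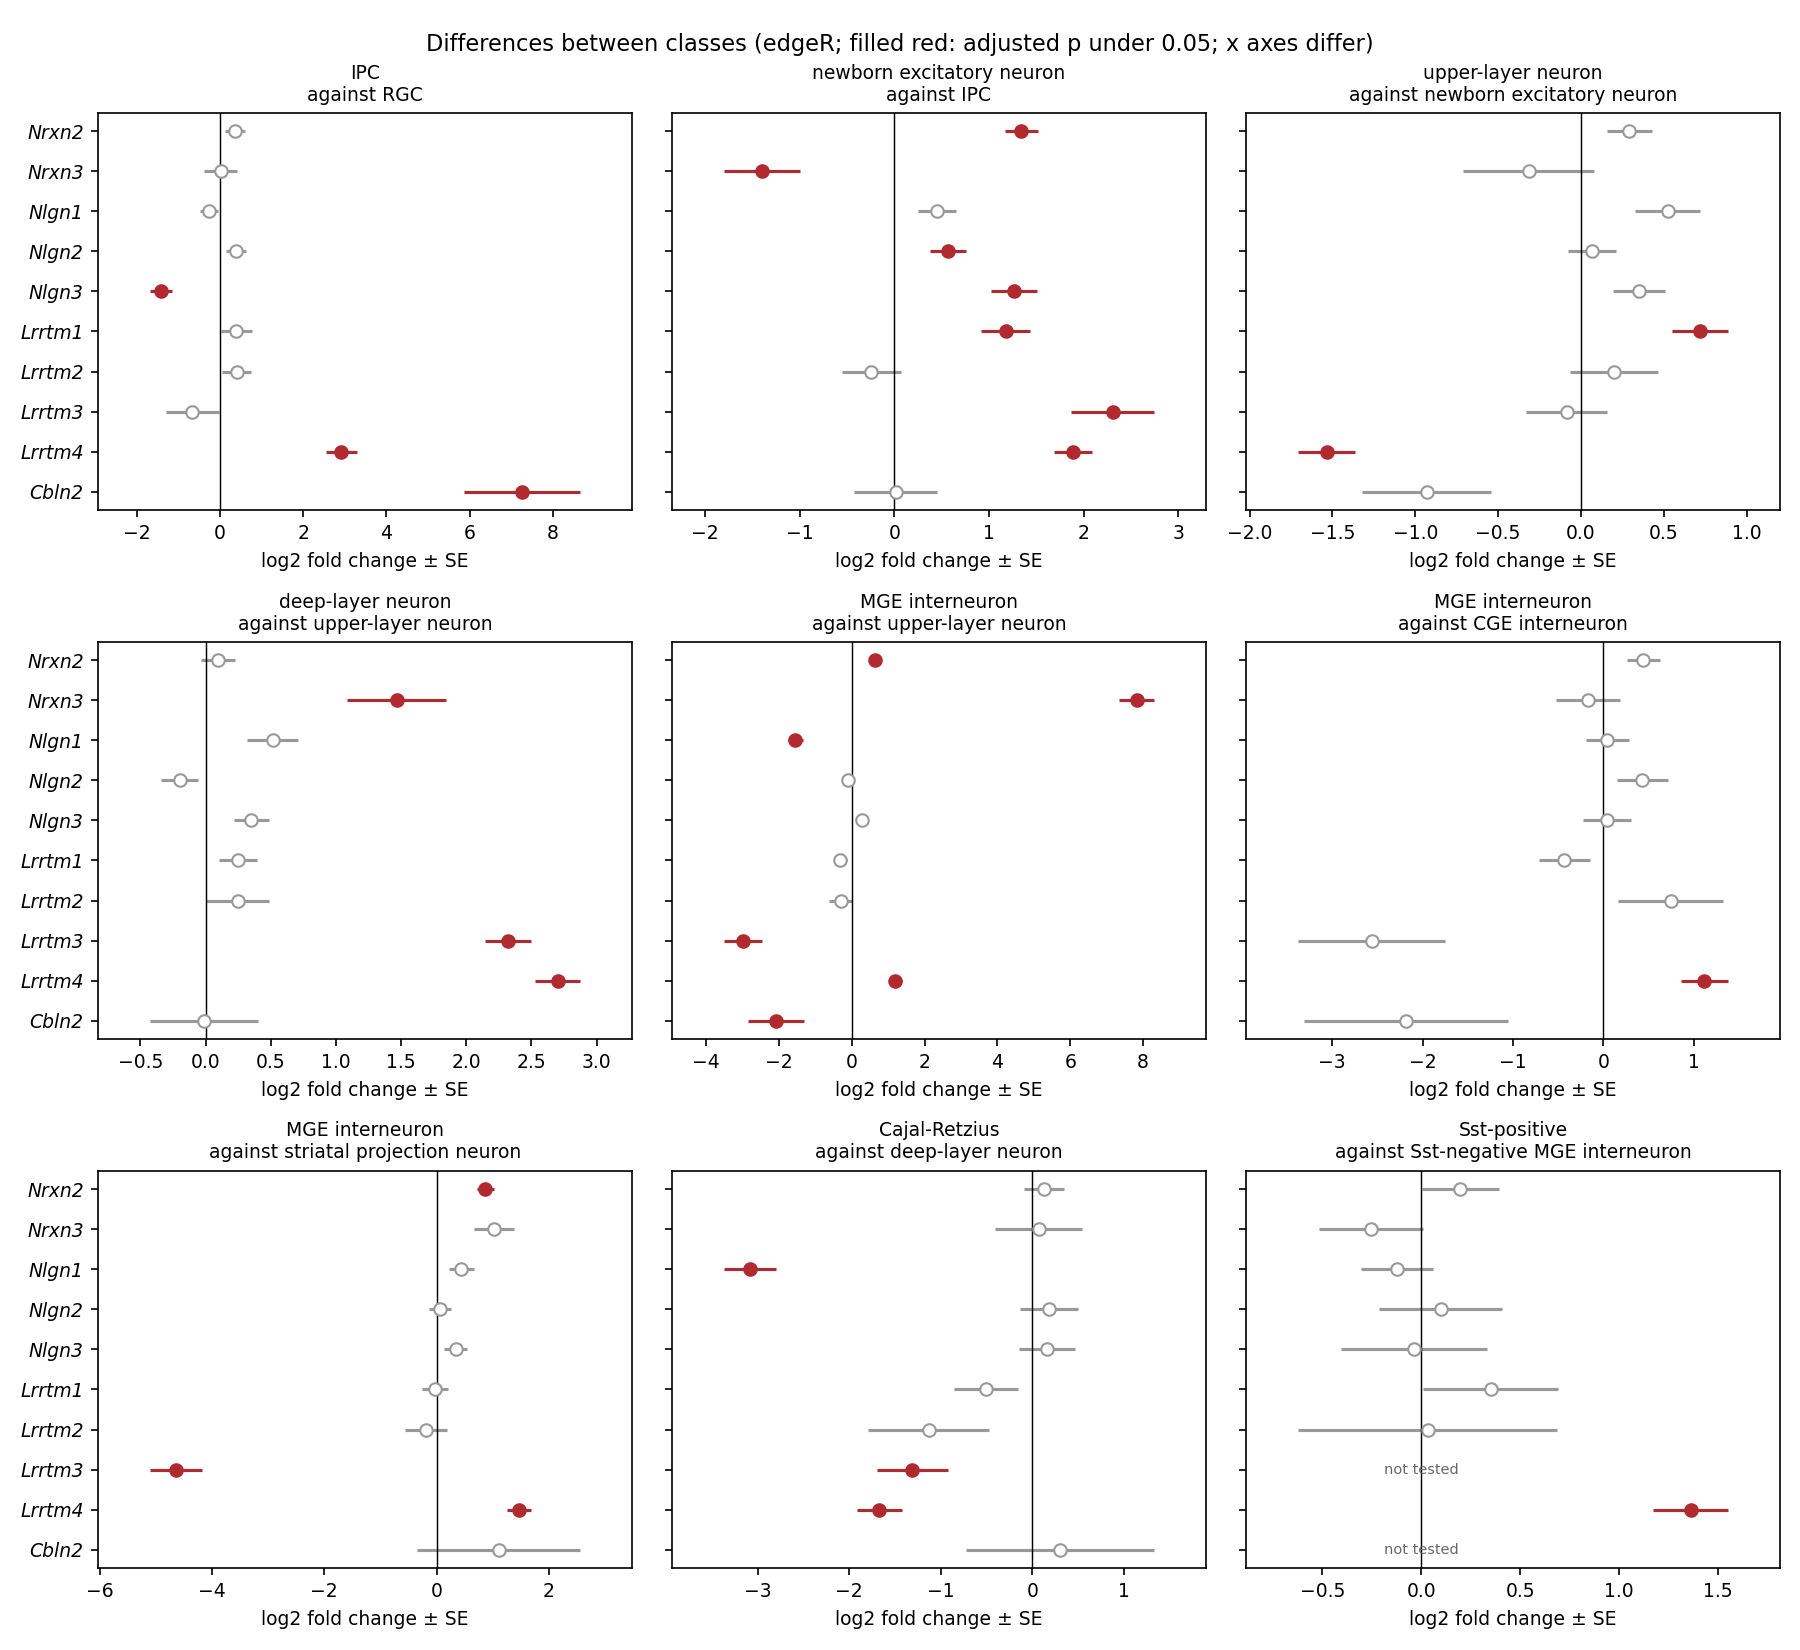
Log2 fold change of each member in 9 comparisons, with bars of 1 SE and filled red points for an adjusted p under 0.05 (edgeR). The x axes differ between panels, and the *Cbln2* value against RGC-like cells at 0 UMIs depends on the prior count. *Lrrtm4* is red in all 9 panels, 7 times to the right of 0 and 2 times to the left.

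MGE interneuron-like and upper-layer neuron-like cells differed in 6 of 10 members, against 22.0% of all genes. *Nrxn3* was higher by log2 7.82 ± 0.48 (adjusted p = 1.84e-17), *Lrrtm4* by 1.19 ± 0.18 and *Nrxn2* by 0.64 ± 0.13. *Lrrtm3* was lower at -2.998 ± 0.52 and *Nlgn1* at -1.55 ± 0.21 (adjusted p = 9.37e-08). The *Nlgn1* difference was -1.002 within replicate 1 and -2.09 within replicate 2, and that of *Lrrtm3* was -2.03 and -4.28. The *Lrrtm4* difference was 0.51 in cells under 5% mitochondrial UMIs and was then not called, nor was it by DESeq2 (1.25). *Cbln2*, with 0 and 4 UMIs in the MGE class, passed narrowly (-2.09 ± 0.78, adjusted p = 0.0489). It was not called without the library as a block (-2.07) nor under 5 of the other alternatives.

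Between MGE and CGE interneuron-like cells neither neurexin was called in the fit of all classes: the log2 difference was -0.17 ± 0.35 for *Nrxn3* and 0.45 ± 0.18 for *Nrxn2*. In the fit of these 2 classes alone, with the library as a block, *Nrxn3* was called at -0.22. Only *Lrrtm4* was called of the 10, against 4.24% of all genes, at 243 and 234 CPM in the MGE class and 127 and 96.4 CPM in the CGE class (1.12 ± 0.26, adjusted p = 0.00463). This call was lost with DESeq2 and with cells under 5% mitochondrial UMIs, at differences of 1.09 and 1.10. *Lrrtm3* at -2.56 ± 0.82 had an adjusted p of 0.0692 but was called under 4 of the alternatives, DESeq2 among them, and its host *Ctnna3* was called lower at -2.34 ± 0.69 (adjusted p = 0.0391).

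Striatal projection neuron-like cells, which also carry *Nrxn3*, differed from MGE interneuron-like cells in 3 of 10 members against 9.53% of all genes. In the MGE class *Lrrtm3* was lower by log2 -4.64 ± 0.46 (adjusted p = 2.07e-10; -4.16 and -5.60 within replicates 1 and 2), and *Ctnna3* by -4.19 ± 0.42. *Lrrtm4* was higher by 1.46 ± 0.22 and *Nrxn2* by 0.87 ± 0.15. *Nrxn3* itself had a difference of 1.02 ± 0.36 with an adjusted p of 0.0639, and was called under 6 of the alternatives, at 0.9995 to 1.12.

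Cajal-Retzius-like cells, the reelin-secreting early neurons of the cortical surface, were compared with deep-layer neuron-like cells, and 3 of 10 members were called, all lower, against 10.5% of all genes. *Nlgn1* stood at 407 and 173 CPM against 1954 and 1891 CPM (-3.08 ± 0.29, adjusted p = 4.18e-11, with -2.26 and -3.45 within replicates 1 and 2). *Lrrtm4* had a difference of -1.67 ± 0.25 and *Lrrtm3* of -1.31 ± 0.39, the latter not called by DESeq2 (-1.16). The class held only 20 and 38 cells, and 1 cell gave 40.3% of its *Nlgn1* UMIs in replicate 1.

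Within the MGE interneuron-like class, 76 and 72 cells had a UMI of *Sst*, and their sums were tested against those of the 243 and 330 cells without one. Of the 8 members that passed the filter on low counts (*Lrrtm3* and *Cbln2* did not), only *Lrrtm4* was called, against 1.88% of 9236 genes. It held 582 and 319 CPM in *Sst*-positive and 135 and 213 CPM in *Sst*-negative cells (1.36 ± 0.19, adjusted p = 6.65e-10). The groups did not overlap, but the difference was 2.11 within replicate 1 and 0.58 within replicate 2. DESeq2 called no member (1, *Lrrtm4*, had an unadjusted p under 0.05, at a difference of 1.37). *Nrxn3* stood at 11802 and 12508 CPM in *Sst*-positive and 14948 and 14272 CPM in *Sst*-negative cells, a difference of -0.25 ± 0.26 (adjusted p = 0.87). *Nlgn1* was at 573 and 292 CPM against 604 and 335 CPM (-0.12 ± 0.18).

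Partner genes were counted in 5 lists: other neurexins and neurexin ligands, neuroligin partners, presynaptic scaffolds that bind neurexins, receptor tyrosine phosphatases and their ligands, and other adhesion organizers. Of the 59 partner genes tested, 32 (54.2%) were called between IPC- and RGC-like cells (32.4% of all genes), 23 higher and 9 lower, with a median log2 fold change of 0.45 where that of all genes was -0.01 and that of the members 0.38. *Nxph4*, a neurexophilin, rose from 0.326 ± 0.461 to 17.8 ± 1.97 CPM, and *Slitrk1* and *Flrt1*, adhesion proteins with leucine-rich repeats, rose by log2 4.77 ± 0.65 and 3.89 ± 0.50, as did *Lrfn5* by 3.88 ± 0.49. From IPC to newborn neuron 32 of 59 (54.2%) were called against 22.6% of all genes, 29 higher and 3 lower, with a median of 0.79 against 0.01 for all genes and 0.87 for the members. By list, 9 of 16 neurexin ligands and other neurexins were called there, 6 of 6 neuroligin partners (5 higher and 1 lower), 3 of 6 scaffolds, 7 of 14 receptor phosphatases and ligands and 7 of 17 other adhesion organizers. The calsyntenin *Clstn2* rose from 61.3 ± 6.72 to 365 ± 37.8 CPM, the latrophilin *Adgrl3* from 143 ± 12.8 to 724 ± 82.3 CPM, *Flrt2* by log2 2.29 ± 0.22 and *Lrfn2* by 2.17 ± 0.45.

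Toward the upper layers 13 of 59 partners (22.0%, against 8.76% of all genes) were called, 10 higher and 3 lower, *Clstn2* rising further to 1228 ± 94.1 CPM, *Flrt3* and *Lrfn5* by log2 1.55 ± 0.15 and 1.40 ± 0.18, and *Nxph4* falling to 3.49 ± 0.456 CPM. In deep-layer against upper-layer cells 23 of 59 (39.0%, against 15.1% of all genes) were called, 15 higher and 8 lower. *Nxph3*, another neurexophilin, stood at 33.4 ± 7.17 against 0.909 ± 0.276 CPM, the secreted *Tafa1* at 367 ± 74.8 against 51.9 ± 1.49 CPM and the C1q-like *C1ql3* at 17.6 ± 9.11 against 3.12 ± 0.374 CPM.

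*Nxph1* and *Nxph2*, secreted neurexin ligands, were higher in the MGE class in each comparison it entered. *Nxph1* stood at 2858 ± 357 CPM in MGE interneuron-like cells, against 10.1 ± 6.02 CPM in upper-layer, 54.0 ± 26.0 CPM in CGE and 53.7 ± 17.2 CPM in striatal projection neuron-like cells, with log2 fold changes of 8.18 ± 0.29, 5.80 ± 0.33 and 5.69 ± 0.27. *Nxph2* stood at 106 ± 51.1 CPM in the MGE class and between 0.739 and 1.58 CPM in the 3 others. Against upper-layer cells 32 of 59 partners (54.2%, against 22.0% of all genes) were called, 12 higher and 20 lower. By list these were 8 of 16 neurexin ligands and other neurexins, 3 of 6 neuroligin partners, 2 of 6 scaffolds, 12 of 14 receptor phosphatases and ligands (4 higher and 8 lower) and 7 of 17 other adhesion organizers. *Clstn2* was at 35.0 ± 3.90 CPM, a difference of -5.18 ± 0.24, and *Mdga1*, which binds neuroligins and blocks their contact with neurexins, was lower by -3.32 ± 0.34. Against CGE cells 11 of 59 (18.6%, against 4.24% of all genes) were called, 8 higher and 3 lower, among the latter *Cadm2* at -1.80 ± 0.15. Against striatal cells 22 of 59 (37.3%, against 9.53% of all genes) were called, 5 higher and 17 lower, among the latter the neurotrophin receptor *Ntrk3* at -3.41 ± 0.19.

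Between Cajal-Retzius-like and deep-layer cells 22 of 59 partners (37.3%, against 10.5% of all genes) were called, of which 7 had more and 15 less in Cajal-Retzius-like cells, with a median of -0.50 where that of all genes was -0.20. *Flrt2* was lower by -3.31 ± 0.35 and *Ntrk3* by -3.03 ± 0.27, *C1ql1* was higher by 2.71 ± 0.88, and *Slitrk2* was at 0 UMIs in both libraries (which allows up to 16.9 and 8.80 CPM) against 16.3 ± 7.24 CPM. Between *Sst*-positive and *Sst*-negative cells 4 of 42 partners (9.52%) were called, all higher, against 1.88% of all 9236 genes. *Tafa1* stood at 71.6 ± 15.7 against 5.69 ± 5.01 CPM (3.73 ± 0.45, adjusted p = 4.91e-13, edgeR), and *Lrfn2* and *Lrrc4* were higher by 1.31 ± 0.33 and 0.70 ± 0.21.

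Over the 17 class means, as a description on points that share libraries and depth, the genes most like *Nrxn3* among 13609 compared were *Sp9*, a transcription factor of GABAergic precursors (Pearson r = 0.966 of log2(CPM + 1)), *Gm38505* (0.957) and *Gm14204* (0.954). For *Nlgn1* they were *Gm48742* (0.910), *Csmd2* (0.901) and *Rnf182* (0.893), for *Nrxn2* *Spink10* (0.970), *Tspyl4* (0.955) and *Hsdl1* (0.932), and for *Cbln2* *B630019A10Rik* (0.907), *Frmd4b* (0.875) and *Tmem150c* (0.842). Between members, *Nrxn3* and *Nlgn1* had r = -0.18, while *Nlgn2* had r = 0.86 with *Nrxn2* and 0.82 with *Nlgn3*.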

How the data were processed

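Single-cell RNA sequencing was performed on 2 WT libraries of E16.5 cerebral cortex, dissociated with papain and prepared with the 10x Genomics 3′ v3.1 kit. What the authors deposited were UMI counts for each gene and barcode, without normalization, made with Cell Ranger (version 7.0.0 per the submitters' processing notes, 7.1.0 per the file headers) on mm10. Strand and intron settings are not given in the sources used here, and *Nrxn3*, *Nlgn1* and *Lrrtm4* span 1612, 911 and 791 kb.

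Members and gene lists were chosen with earlier results of these data known. Cells with 1500 to 60000 UMIs and under 10% mitochondrial UMIs were gated on raw counts of marker genes. The markers were listed beforehand, the gate thresholds were set after marker counts were seen and without the members' values. A cell of several gates or of none has no class. Doublets were kept, and their removal by Scrublet score (scanpy 1.11.5; 432 and 1111 cells, 0.8% per 1000 barcodes) was an alternative.

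UMIs were summed per library and class and tested by quasi-likelihood F-tests in edgeR 4.0.16 under R 4.3.3. Genes needed at least 10 counts in at least 2 sums, sums were scaled by TMM, the library entered as a block since each library held every class, and p-values had Benjamini-Hochberg adjustment over all genes. All 17 classes entered 1 fit, the *Sst* comparison 4 sums. The SE is the size of the log2 fold change divided by the square root of F. Fits were checked on simulated data. Sums of few cells are the least precise, and counting error follows the UMIs given. In each comparison up to 4 called partners are named by size of fold change, if their higher class reached 10 CPM and both libraries moved the same way, and 1 gene so picked is not reported here. The genes compared by likeness are the 3 of highest r. The splits by mitochondrial share and the share of UMIs from 1 cell were added after the data were seen. Alternatives were RLE size factors, DESeq2 1.42.0, no filter, no block, only the compared classes, stricter gates, doublets removed, under 5% mitochondrial UMIs, at least 3000 UMIs, and each library left out.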

Additional observations from a re-analysis of the deposited data

How the results depend on the processing

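Of 735 fitted member values under the alternatives, 654 kept their direction and side of the threshold, 36 gained a call, 17 lost it and 28 changed sign, none of the 28 being a called value. The shares of all genes called that are given above belong to the main fits. No such share is given here for an alternative, so the counts below are not a result about the members against all genes. Counts of called members that moved by over 1.5 times were 5 of 10 for IPC against RGC with doublets removed. For upper-layer against newborn cells they were 1 with DESeq2, 1 under 5% mitochondrial UMIs and 6 with only the compared classes. For deep against upper layers they were 5 with RLE size factors and 5 with only the compared classes. For MGE against CGE they were 2 with no filter, only the compared classes, stricter gates or doublets removed, and 0 under 5% mitochondrial UMIs, where *Lrrtm4* and *Lrrtm3* (2 members) had an unadjusted p under 0.05. For MGE against striatal cells the count was 5 with no filter, and for *Sst* it was 0 with DESeq2 (1 at an unadjusted p under 0.05) and 1 with edgeR. Without 1 library there is no test. The called members with a ratio in the remaining library in the same direction then numbered 2 for IPC against RGC, 7, 2 and 3 along the excitatory steps, 5 to 6 for MGE against upper-layer cells and 1, 3, 3 and 1 in the other comparisons. The called member missing from the first and from the count of 5 was *Cbln2*, which has no ratio where a class is at 0 UMIs; its CPM differed in the same direction in both libraries. The highest class stayed the same for 5 of 10 members with stricter gates and for 5 under 5% mitochondrial UMIs. In each, 4 of the 5 changes came from a highest class with too few cells left. Leaving out the library as a block changed 1 call, *Cbln2* in MGE against upper-layer cells. The cause was not tested, apart from the fewer cells or genes of a setting.

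Sign changes were near 0 in most cases. *Nrxn3* in IPC against RGC was -0.057 (RLE), -0.039 (DESeq2) and -0.021 (at least 3000 UMIs). *Cbln2* in newborn against IPC was -0.0084 (only the compared classes) and -0.031 (doublets removed), and in deep against upper layers 0.072 (RLE), 0.074 (DESeq2), 0.018 (no block), 0.022 (only the compared classes), 0.040 (doublets removed) and 0.93 (under 5%). *Lrrtm3* in upper-layer against newborn was 0.088 (stricter gates) and 0.097 (doublets removed). In MGE against CGE, *Nlgn1* was -0.053 and *Nlgn3* -0.0044 with only the compared classes, and *Nlgn1* was -0.18, *Lrrtm2* -0.12 and *Nlgn3* -0.10 with stricter gates. In MGE against striatal cells *Lrrtm1* was 0.13 (stricter gates) and 0.072 (doublets removed), and *Lrrtm2* 0.36 (under 5%). In the *Sst* comparison *Nlgn2* was -0.013 and *Lrrtm2* -0.083 with no filter, *Nlgn3* was 0.11 (stricter gates), 0.17 (under 5%) and 0.13 (at least 3000 UMIs), and under 5% *Nlgn1* was 0.12 and *Lrrtm1* -0.70.

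The Cajal-Retzius comparison could not be fitted with stricter gates, doublets removed, under 5% mitochondrial UMIs or at least 3000 UMIs, where a library held under 20 such cells. *Cbln2* and *Lrrtm2* rest on few UMIs, and differences of theirs that were not called may lie below what this depth can show. Both libraries are of 1 group, so how far the levels vary between litters or genotypes is not known.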
